A study of Mus musculus with 36 samples.

Results

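The effect of genotype on the liver transcriptome after a 16 h fast was measured in 12 of the 36 sequenced livers, namely those whose labels give the overnight fasted state. Of these, 6 came from wild-type mice and 6 from WT/Y657* mice, as their labels state. The other livers came from 12 fed mice and from 12 mice refed for 6 h after the fast, and were used here to estimate the spread between mice and to test whether the genotype effect differed between states. The question is how 1 mutant allele of *Pik3r1* alters liver gene expression after a 16 h fast.

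All mice were males aged 16 weeks and kept on chow. WT/Y657* mice are heterozygous for a stop codon in place of the codon for Y657, a tyrosine, of *Pik3r1*, an allele present in every tissue. It is a knock-in that also brought in a floxed selection marker, neomycin resistance, and the mice were backcrossed to C57Bl/6J. Wild-type mice had the same background, diet, age and sex. A knock-in in all tissues cannot separate effects that arise in hepatocytes from those that reach the liver through hormones or nutrients. Mouse numbers in the labels fall into a lower and a higher series, with 3 mice of each genotype in each: in the lower series WT_807, WT_824 and WT_825 and MT_806, MT_826 and MT_827, and in the higher WT_918, WT_919 and WT_920 and MT_921, MT_922 and MT_923, names that join genotype (MT for WT/Y657*) and mouse number as in the labels. What the series stand for is not stated. In the higher series every wild-type number lies below every WT/Y657* number, so genotype and mouse number cannot be told apart there.

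Total counts on genes ranged from 8839488 to 14482781 (median 14079438) in fasted wild-type mice and from 9716801 to 14630431 (median 12322654) in fasted WT/Y657* mice (exact permutation test of the genotypes, two-sided, p = 0.487). Between 17101 and 18267 genes had a count in wild-type and between 17497 and 18691 in WT/Y657* livers (exact permutation p = 0.219). Levels are given as CPM, counts relative to library size scaled with trimmed means of M-values (TMM). Genotypes were compared with edgeR's quasi-likelihood test in 1 model over all 36 libraries, with mouse series as a block within fasted and within refed mice. A gene was called where its Benjamini-Hochberg adjusted p over 13945 genes tested was under 0.05, and a positive log2 fold change means a higher level in WT/Y657* mice. Spread between mice of a group amounted to a common biological coefficient of variation of 0.178. Bulk RNA cannot tell fewer cells of a type from less RNA per cell.

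*Pik3r1* encodes p85α, p55α and p50α, regulatory partners of class I phosphoinositide 3-kinase in insulin signalling. The products of the kinase activate AKT, which in liver keeps FOXO transcription factors out of the nucleus and favours SREBP-dependent lipid synthesis. During a fast insulin falls, glucagon and glucocorticoids rise, and the liver turns to fatty acid oxidation, ketogenesis and gluconeogenesis.

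The mutated codon is shown with 10 codons on either side, because it marks where the protein encoded by the mutant allele ends. In the GENCODE M21 annotation of build GRCm38 it lies on the minus strand of chromosome 13, at 101686222 to 101686224, in coding exon sequence of exon 15 of 16. The full-length reading frame holds 724 codons, of which 67 follow codon Y657. In the reference coding sequence, capitals mark the codon that is a stop codon in the mutant allele, whose own bases are not analysed here.
Pik3r1 codon Y657: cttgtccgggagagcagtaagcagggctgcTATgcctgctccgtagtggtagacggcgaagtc

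The *Pik3r1* transcript lay between 82.4 and 106 CPM (median 94.3) in fasted wild-type mice and between 74.5 and 112 CPM (median 99.1) in fasted WT/Y657* mice. The groups overlapped, and the difference of 0.046 on the log2 scale (standard error 0.10, adjusted p = 0.821, edgeR) was within the spread between mice. It was -0.14 in the lower and 0.23 in the higher mouse series. Without MT_826 and without MT_923 it was -0.001 and -0.002. The counts sum both alleles, so the level does not check the genotype labels.

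Of 53 genes for the insulin receptor, its substrates, PI3K, AKT and mTOR tested, 3 rose and 4 fell in WT/Y657* mice, 13.2% against 13.5% of all genes tested, with a median log2 fold change of -0.017. *Phlpp1*, a phosphatase that removes an activating phosphate from AKT, lay between 36.7 and 44.9 CPM (median 44.1) in wild-type and between 26.6 and 34.8 CPM (median 28.6) in WT/Y657* mice (log2 fold change -0.52, standard error 0.10, adjusted p = 0.000808, edgeR). *Irs1*, a docking protein of the insulin receptor, lay between 42.9 and 63.9 CPM (median 53.1) and between 27.1 and 41.8 CPM (median 36.6), respectively (-0.57, standard error 0.12, adjusted p = 0.00197, edgeR). *Foxo3* fell by 0.34 on the log2 scale (adjusted p = 0.00629, edgeR). The genotypes were apart for *Phlpp1* and *Irs1* and overlapped for *Foxo3*. Without MT_806, WT_824 or WT_919 the list had 1 gene higher and 3 lower. Of 22 genes that FOXO factors induce and insulin represses, 1 rose and 1 fell, 9.09% called, with a median of -0.037. *Trib1*, a pseudokinase that promotes the degradation of C/EBPα, fell by 0.56 on the log2 scale (adjusted p = 0.00397, edgeR), with no overlap between the groups. *Ccng2*, an atypical cyclin, rose by 0.45 (adjusted p = 0.0338, edgeR; 0.0220 to 0.0797 across alternative settings), and its adjusted p lay between 0.0523 and 0.126 without any 1 of MT_806, MT_827 and MT_922 and WT_807, WT_824, WT_825, WT_918 and WT_919. That list had 0 genes higher and 1 lower by edgeR without any 1 of MT_806, MT_827, MT_922, WT_824, WT_825, WT_918 and WT_919. *Igfbp1*, a secreted FOXO target, reached 71.1 CPM in wild-type and lay between 36.1 and 352 CPM in WT/Y657* mice and was not called (1.31, standard error 0.68, adjusted p = 0.209, edgeR).

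In fasted liver 1883 of 13945 genes tested were called (13.5%), of which 906 (6.50% of genes tested) rose and 977 (7.01%) fell in WT/Y657* mice. Changes were small: genes that were called changed by a median of 0.41 on the log2 scale in either direction, and 1203 of them (63.9%) changed by less than 0.5. A change of more than 1 on the log2 scale was found for 109 genes that rose and 53 that fell. The 6 and 6 mice did not overlap in CPM for 638 called genes (4.58% of genes tested), 327 higher and 311 lower, and for 703 genes called or not (5.04%). With scaling by library size alone, 1103 genes were higher and 642 lower, so the balance between directions depends on the scaling. Without MT_806 the count was 1223. On a principal component analysis of the 12 livers the first component, with 24.7% of the variance, placed all wild-type mice at negative values, and MT_806 and MT_827 lay farthest at the other end, at 0.582 and 0.480.

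**Figure D1:**
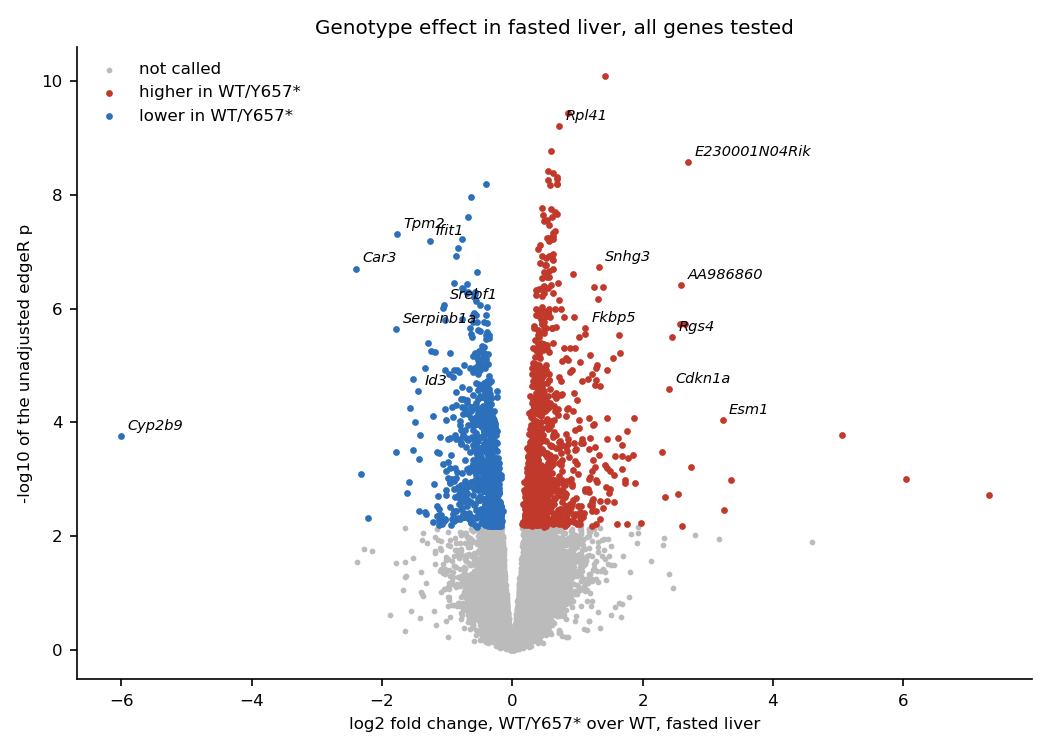
Log2 fold change of each of 13945 genes between fasted WT/Y657* and wild-type livers (x axis) against the unadjusted edgeR p on a -log10 scale (y axis), with 906 called genes that were higher in WT/Y657* mice and 977 that were lower in colour. Named points include *Cyp2b9* at -6.01, *Car3* at -2.40 and *Esm1* at 3.23.

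Among called genes with a mean of at least 1 CPM and no overlap between the groups, the largest decrease was in *Cyp2b9*, a cytochrome P450 of female-biased expression. It lay between 1.61 and 75.0 CPM (median 13.7) in wild-type and between 0 and 1.34 CPM (median 0.0940) in WT/Y657* mice (-6.01, standard error 1.39, adjusted p = 0.00426, edgeR). Cyp2b genes have close paralogs between which reads could be split, so its value is uncertain. *Car3*, the cytosolic carbonic anhydrase of liver, muscle and fat, was an abundant transcript that lay between 970 and 2086 CPM (median 1610) in wild-type and between 110 and 570 CPM (median 336) in WT/Y657* mice (-2.40, standard error 0.35, adjusted p = 5.4e-05, edgeR). *Serpinb1a*, an inhibitor of neutrophil proteases, lay between 10.8 and 15.4 CPM and between 2.18 and 6.36 CPM, respectively (-1.78, standard error 0.31, adjusted p = 0.000233, edgeR). The genotypes did not overlap for these genes, which is how they were chosen. *Id3*, an inhibitor of basic helix-loop-helix factors, fell from a median of 58.9 to 22.4 CPM (-1.44, adjusted p = 0.00126, edgeR), and *Tpm2*, a tropomyosin, from 13.3 to 4.44 CPM (-1.77, adjusted p = 2.5e-05, edgeR). *Esrrg*, an orphan nuclear receptor, fell by 1.78 on the log2 scale, *Sema5b*, a semaphorin, by 1.57, and *Pdzrn3*, a ubiquitin ligase, by 1.53 (adjusted p from 0.000933 to 0.00649, edgeR), and *Aqp4*, a water channel, fell as well (adjusted p = 0.00293, edgeR). *Phlda1* fell by 1.61 (adjusted p = 0.0197, edgeR), and without MT_806 its adjusted p was 0.0575.

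The largest increase under the same rule was in *Esm1*, a proteoglycan that endothelial cells secrete, which lay between 0.210 and 1.51 CPM (median 0.802) in wild-type and between 2.31 and 14.4 CPM (median 7.05) in WT/Y657* mice (3.23, standard error 0.71, adjusted p = 0.00278, edgeR). *Rgs4*, a brake on G protein signalling, lay between 0.140 and 1.29 CPM and between 1.76 and 8.35 CPM (2.45, adjusted p = 0.000298, edgeR). *Ctgf*, a matricellular protein, lay between 2.88 and 15.2 CPM and between 15.3 and 60.6 CPM (1.87, adjusted p = 0.00265, edgeR). The rule chose all 10 genes of this kind with groups apart, though for *Ctgf* and *Marveld3* the nearest wild-type and WT/Y657* mice almost met. Genes known only by a clone or sequence name were *E230001N04Rik* (2.70, adjusted p = 6.7e-06, edgeR), *E030018B13Rik* (2.65, adjusted p = 0.000213, edgeR) and *AA986860* (2.59, adjusted p = 8.5e-05, edgeR). *Myom1*, a sarcomere protein, rose by 1.65 (adjusted p = 0.000459, edgeR), *Marveld3*, a tight junction protein, by 1.76 (adjusted p = 0.00374, edgeR) and *Fam83a* by 1.86 (adjusted p = 0.00710, edgeR). *Ly6d*, a surface protein with a lipid anchor, rose by 1.97 (adjusted p = 0.0447, edgeR; 0.0239 to 0.0833 across alternative settings), a value that rests on MT_827 at 46.0 CPM. Its change was 1.07 (adjusted p = 0.292, edgeR) without that mouse, and its adjusted p lay between 0.0565 and 0.108 without any 1 of MT_921, MT_922 and MT_923 and WT_807, WT_824, WT_825, WT_919 and WT_920.

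The smallest p-values of all belonged to a pair of genes picked after their values had been seen. *Pfkfb2*, which makes and breaks down fructose 2,6-bisphosphate, an activator of glycolysis, lay between 28.9 and 37.1 CPM (median 32.2) in wild-type and between 38.9 and 74.2 CPM (median 60.2) in WT/Y657* mice (0.85, adjusted p = 2.6e-06, edgeR). *Gm16573*, annotated as an antisense transcript, lay between 4.98 and 6.75 CPM and between 12.4 and 21.7 CPM, respectively (1.42, standard error 0.16, adjusted p = 1.1e-06, edgeR). No wild-type mouse reached the lowest WT/Y657* mouse for either gene. The kit keeps strand, but the strand setting of the authors' counting is not given in the sources used here, so reads of antisense and overlapping genes may not have been separated.

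**Figure D2:**
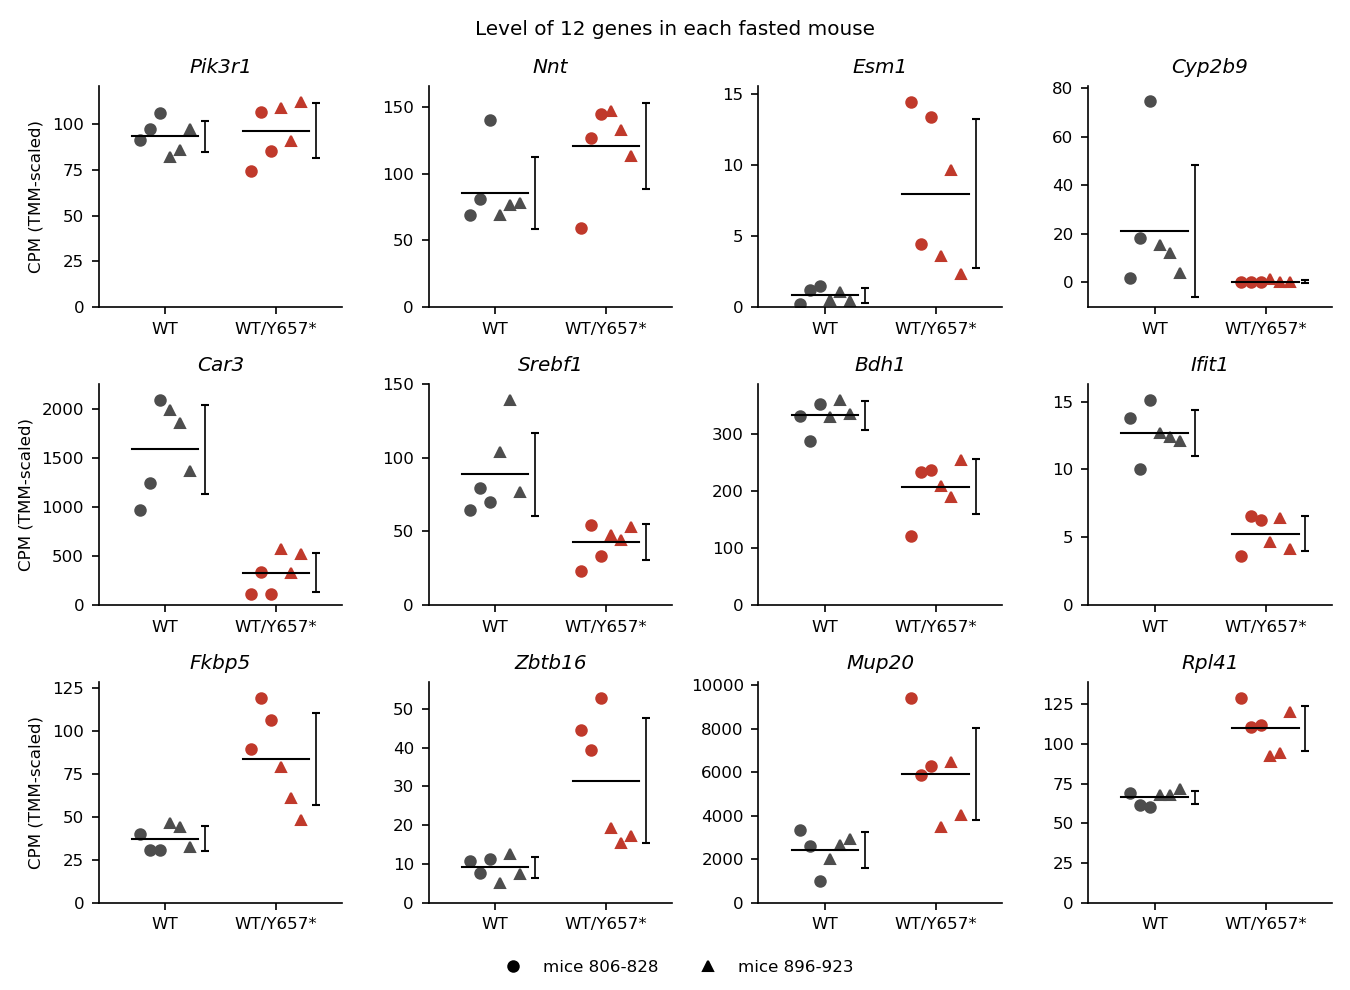
Level (CPM, TMM-scaled) of 12 genes in each of 6 wild-type and 6 WT/Y657* fasted mice, circles for the lower and triangles for the higher mouse number series, with the group mean as a line and the SD as a bar beside it. *Pik3r1* and *Nnt* overlap between genotypes, and the other 10 genes do not.

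Cytosolic ribosomal protein genes had the largest share called of the lists examined (90.4% against 13.5% of all genes tested). Of 83 tested, 75 rose in WT/Y657* mice and 8 were not called, with a median log2 fold change of 0.41 against 0.003 over all genes tested. For 53 of them all 6 WT/Y657* mice lay above every wild-type mouse, against 357 of all 13945 genes tested. The summed level of the ribosomal protein genes was 6100 to 7170 CPM (median 6542) in wild-type mice. It was 7802 to 9718 CPM (median 8304) in WT/Y657* mice, again without overlap. *Rpl41* lay between 60.5 and 71.6 CPM and between 92.4 and 129 CPM (0.72, standard error 0.086, adjusted p = 2.9e-06, edgeR), *Rpl12* rose by 0.69 and *Rpl9* by 0.62 (adjusted p = 6.7e-06 for each, edgeR). These genes have many processed pseudogenes, so values of single members are uncertain.

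Of 79 nuclear genes for subunits of the respiratory chain and ATP synthase, 40 rose, 1 fell and 38 were not called, with a median of 0.22. The share called was 51.9% against 13.5% of all genes tested. *Cox7a2*, a subunit of cytochrome c oxidase, lay between 97.1 and 129 CPM (median 108) in wild-type and between 148 and 206 CPM (median 172) in WT/Y657* mice (0.66, standard error 0.091, adjusted p = 1.5e-05, edgeR). *Cox7b* rose by 0.57 (adjusted p = 4.0e-05, edgeR) and *Atp5e*, a small subunit of ATP synthase, by 0.51 (adjusted p = 4.2e-05, edgeR). Groups were apart for 23 members that were higher and 1 that was lower, against 357 and 346 of all 13945 genes tested. The summed level of the 79 genes overlapped, at 8892 to 11219 CPM in wild-type and 9996 to 12357 CPM in WT/Y657* mice. Of 12 subunits that the mitochondrial genome encodes 1 rose (8.33% called), *mt-Co3* (0.36, adjusted p = 0.0105, edgeR). Its adjusted p was 0.00165 to 0.469 across alternative settings. With correction for gene length and GC content *mt-Co3* was not called (0.095, adjusted p = 0.469, edgeR). Under that correction another member was called lower, and the median of the 12 turned from 0.21 to -0.059. The share of all counts on the mitochondrial genome was 7.24% to 9.25% in wild-type and 5.49% to 12.8% in WT/Y657* mice (exact permutation test, two-sided, p = 0.656).

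Members of these lists are short, and the genotype effect varied with gene length across the whole transcriptome. The median exon length was 1781 bases for ribosomal protein and 1756 bases for respiratory chain genes against 4268 bases for all genes tested. Among 215 genes under 500 bases 46 rose (21.4%), with a median log2 fold change of 0.43, and the median was 0.15 from 500 to 1000 bases, 0.079 from 1000 to 2000 bases and -0.025 from 4000 to 8000 bases. Without ribosomal protein and respiratory chain genes the first 3 of these medians were 0.43, 0.12 and 0.068. The log2 level of each gene was also taken relative to its mean over the fasted livers. In each liver the median of these values was computed for genes under 1000 bases and for genes over 5000 bases. The first median minus the second was -0.17 to -0.036 in wild-type and 0.070 to 0.23 in WT/Y657* mice. The group means differed by 0.25 (exact permutation test, two-sided, p = 0.00216, the smallest possible with 6 against 6 mice). This difference was 0.29 in the lower and 0.21 in the higher mouse series. A measure of this kind can move with RNA quality or library preparation, and its part in the changes of short genes was not tested. With the fit corrected for gene length and GC content, 70 of 83 ribosomal protein genes rose (median 0.38), 27 respiratory chain genes rose and 1 fell (median 0.15), and 756 of all genes were higher and 906 lower. Gene length here sums all annotated exons of a gene, so it can exceed the length of the transcript present. The correction therefore cannot tell whether these rises hold at equal transcript length, which was not tested. In fed and refed mice genes under 500 bases had median genotype effects of -0.041 and -0.16.

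**Figure D3:**
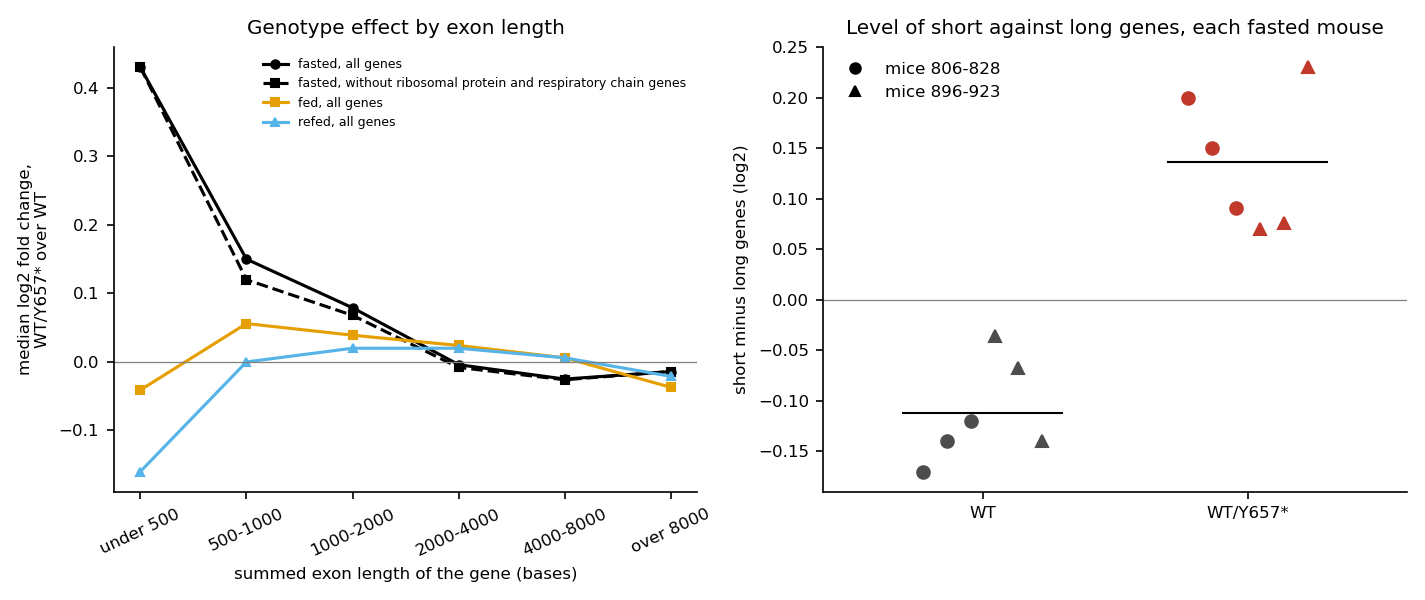
Left, median log2 fold change between genotypes (y axis) by class of summed exon length in bases (x axis) in fasted mice, with and without ribosomal protein and respiratory chain genes, and in fed and refed mice; it falls from 0.43 in the shortest class to -0.014 in the longest in fasted mice. Right, median log2 level of short genes minus that of long genes in each fasted mouse (y axis) by genotype, which does not overlap between the genotypes. Levels in the right panel are relative to the mean of each gene over the fasted livers.

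In other lists for making and importing proteins a smaller share was called than among cytosolic ribosomal protein (90.4%) and nuclear respiratory chain genes (51.9%). Over all genes tested 13.5% were called, and differences between lists were not tested. Of 76 mitochondrial ribosomal protein genes 13 rose and 2 fell (19.7% called, median 0.11), the smallest p being that of *Mrpl50* (0.45, adjusted p = 1.5e-05, edgeR). Of 27 genes for mitochondrial chaperones, import and ATP synthase assembly 8 rose and 1 fell (33.3% called, median 0.037). *Timm8b*, a small chaperone of the space between the mitochondrial membranes, lay between 18.8 and 25.1 CPM in wild-type and between 25.3 and 40.4 CPM in WT/Y657* mice (0.69, standard error 0.092, adjusted p = 6.7e-06, edgeR). *Hspe1*, the co-chaperonin of the matrix, rose by 0.62 (adjusted p = 4.2e-05, edgeR), and *Lonp1*, a matrix protease, fell by 0.32 (adjusted p = 0.00100, edgeR). Of 64 translation factor genes 11 rose and 4 fell (23.4% called), with a median of 0.030. *Eef1b2*, a nucleotide exchange factor of elongation, rose by 0.48 (adjusted p = 8.6e-05, edgeR), whereas *Eif4b*, an initiation factor, fell by 0.34 (adjusted p = 0.00256, edgeR) and *Eef2k*, the kinase that inhibits elongation factor 2, fell by 0.75 (adjusted p = 0.00417, edgeR).

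Of 39 proteasome genes 5 rose (12.8% called against 13.5% of all genes tested), led by *Psma7* (0.42, adjusted p = 3.0e-05, edgeR). In that list 10 rose without MT_806 and 3 without MT_923. Of 20 aminoacyl-tRNA synthetase genes 1 was called, *Aars*, which fell by 0.34 (adjusted p = 0.00418, edgeR), and without WT_825 a total of 2 fell. Of 39 genes for ribosome biogenesis 4 rose and 1 fell (12.8% called, likewise against 13.5% of all genes tested). *Nop10*, a core protein of small nucleolar ribonucleoproteins, rose by 0.38 (adjusted p = 0.000719, edgeR) and *Gnl3*, nucleostemin, by 0.41 (adjusted p = 0.0105, edgeR). *Ncl*, nucleolin, fell by 0.31 (adjusted p = 0.0244, edgeR), with an adjusted p between 0.0542 and 0.0840 without any 1 of MT_827 and MT_923 and WT_825 and WT_920. That list had 2 or 3 genes called without any 1 of MT_826, MT_827, MT_923, WT_807, WT_825, WT_919 and WT_920.

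Of 27 genes for cholesterol synthesis and uptake 6 fell and 1 rose (25.9% called against 13.5% of all genes tested). The list had a median of -0.39, and 26 members had a negative log2 fold change. *Ggps1*, geranylgeranyl diphosphate synthase, was the member that rose (0.44, adjusted p = 0.0134, edgeR). The number that fell was 2 without MT_806, and 3 without any 1 of MT_827, MT_922 and MT_923 and WT_807, WT_824, WT_825 and WT_918.

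Of 31 genes for lipogenesis and glycolysis 3 fell and 28 were not called, 9.68% called against 13.5% of all genes tested, with a median of -0.051 against 0.003. *Srebf1*, which encodes the SREBP1 transcription factors, lay between 64.3 and 139 CPM in wild-type and between 22.8 and 54.0 CPM in WT/Y657* mice. It was lower by -0.96 and -1.14 on the log2 scale within the lower and higher mouse series (adjusted p = 0.0176 and 0.0357, edgeR). *Mid1ip1*, an activator of acetyl-CoA carboxylase, fell by 1.04 (adjusted p = 0.00205, edgeR), with no overlap. *Khk*, ketohexokinase, fell by 0.56 (adjusted p = 0.0318, edgeR; 0.00176 to 0.0632 across alternative settings), and its adjusted p lay between 0.0629 and 0.0833 without any 1 of MT_806, MT_827 and MT_923 and WT_824, WT_825 and WT_918.

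Of 49 genes for fatty acid oxidation, ketogenesis and other targets of PPARα 9 fell (18.4% called against 13.5% of all genes tested) and 40 were not called. The median was -0.17, and without MT_806 a total of 4 fell. *Bdh1*, the dehydrogenase that makes β-hydroxybutyrate, lay between 288 and 360 CPM (median 333) in wild-type and between 121 and 255 CPM (median 222) in WT/Y657* mice (-0.68, standard error 0.11, adjusted p = 9.5e-05, edgeR). *Ppara* itself fell by 0.55 in each mouse series. Neither gene overlapped between the groups.

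Gluconeogenesis and glycogen genes were called in 14 of 38 cases (36.8% against 13.5% of all genes tested), 12 of them lower, with a median of -0.12. *Cebpa*, a transcription factor of hepatocyte metabolism, lay between 261 and 331 CPM in wild-type and between 142 and 265 CPM in WT/Y657* mice (-0.53, standard error 0.095, adjusted p = 0.000240, edgeR). *Pgm2*, a phosphoglucomutase, fell by 0.39 (adjusted p = 0.000259, edgeR) and *Pdp2*, a phosphatase that activates pyruvate dehydrogenase, by 0.52 (adjusted p = 0.000555, edgeR). Groups were apart for *Pdp2* and overlapped for *Cebpa* and *Pgm2*. *Pck1* and *G6pc*, the enzymes most often read as gluconeogenesis, were not called, at -0.086 and -0.27 (adjusted p = 0.834 and 0.767, edgeR). Of 53 genes for amino acid catabolism and the urea cycle 3 rose and 11 fell (26.4% called), with a median of -0.046. *Aldh4a1*, an enzyme of proline breakdown, fell by 0.58 (adjusted p = 9.8e-05, edgeR). *Tdo2*, which opens the ring of tryptophan, rose by 0.45 (adjusted p = 0.00174, edgeR), from a median of 2066 to 2714 CPM, with no overlap.

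Of 21 genes for bile acid synthesis and transport 5 fell (23.8% called against 13.5% of all genes tested). The median was -0.24, and 3 fell without MT_806. *Abcc3*, an exporter of the basolateral membrane, lay between 402 and 491 CPM (median 439) in wild-type and between 152 and 325 CPM (median 284) in WT/Y657* mice (-0.80, standard error 0.18, adjusted p = 0.00315, edgeR). *Slc27a5*, which activates bile acids with coenzyme A, fell by 0.32 (adjusted p = 0.00443, edgeR), and *Nr5a2*, a nuclear receptor that drives bile acid genes, by 0.29 (adjusted p = 0.0118, edgeR). Of 32 drug-metabolizing P450 and related genes 8 fell and 1 rose (28.1% called), with a median of -0.064. *Ugt1a1*, which conjugates bilirubin, fell by 0.73 (adjusted p = 0.00204, edgeR) and *Aldh1a1*, a retinaldehyde dehydrogenase, by 0.85 (adjusted p = 0.0111, edgeR). *Cyp2c29*, whose family has close paralogs and is uncertain for that reason, fell by 0.62 (adjusted p = 0.0148, edgeR; 0.00398 to 0.0517 across alternative settings). Between 3 and 5 genes of this list were lower without any 1 of MT_806, MT_827 and MT_922 and WT_824, WT_825 and WT_918. Of 29 apolipoprotein and hepatokine genes 2 rose and 4 fell (20.7% called). *Lipc*, hepatic lipase, lay between 155 and 175 CPM and between 57.0 and 132 CPM (-0.77, standard error 0.16, adjusted p = 0.00112, edgeR), *Lect2*, a secreted chemotaxin, fell by 0.70 (adjusted p = 0.00161, edgeR), and *Apoc4* rose by 0.35 (adjusted p = 0.00307, edgeR).

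Of 16 genes for the glucocorticoid receptor and its targets 5 rose and 2 fell, *Nr3c1* itself among the latter (43.8% called against 13.5% of all genes tested). The list median was 0.55, and it was 0.75 in the lower and 0.37 in the higher mouse series. *Fkbp5*, a chaperone that glucocorticoids induce, lay between 30.4 and 46.2 CPM (median 36.2) in wild-type and between 48.0 and 119 CPM (median 84.3) in WT/Y657* mice (1.12, standard error 0.19, adjusted p = 0.000232, edgeR). *Zbtb16*, a zinc finger factor induced likewise, lay between 5.19 and 12.5 CPM (median 9.30) and between 15.4 and 52.8 CPM (median 29.5), respectively (1.64, standard error 0.28, adjusted p = 0.000273, edgeR). *Nr3c1*, which encodes the receptor, lay between 118 and 140 CPM and between 84.9 and 115 CPM (-0.39, standard error 0.065, adjusted p = 0.000146, edgeR). No WT/Y657* mouse overlapped the wild-type range for any of them. For *Zbtb16* the 3 WT/Y657* mice of the lower series were above the 3 of the higher series, and the change was 2.21 (adjusted p = 0.000603, edgeR) and 1.03 (adjusted p = 0.209, edgeR) within them.

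In the growth hormone axis 3 of 17 genes rose and 2 fell (29.4% called against 13.5% of all genes tested). *Stat5b*, which carries the growth hormone signal to the nucleus, lay between 57.1 and 76.7 CPM in wild-type and between 47.4 and 56.6 CPM in WT/Y657* mice (-0.43, standard error 0.080, adjusted p = 0.000408, edgeR). *Igfbp3*, a binding protein of insulin-like growth factors, lay between 10.6 and 17.1 CPM and between 19.2 and 42.0 CPM (1.03, standard error 0.23, adjusted p = 0.00280, edgeR). Both were apart between the groups. Of 26 genes more abundant in male liver 3 rose and 2 fell (19.2% called, median 0.38). Of 17 more abundant in female liver 1 rose and 1 fell (11.8% called, below the 13.5% of all genes tested, median 0.18). The male-biased median was 0.50 in the lower and -0.002 in the higher mouse series, and the female-biased median 0.37 and 0.11. *Mup20*, a major urinary protein, lay between 1006 and 3352 CPM and between 3461 and 9404 CPM (1.26, standard error 0.28, adjusted p = 0.00310, edgeR), and the Mup family is so alike in sequence that this value is uncertain. Other male-biased genes were *C6*, of the complement cascade, which rose by 0.71 (adjusted p = 0.00899, edgeR; 0.00129 to 0.0675 across alternative settings), and *Cyp2u1*, which fell by 0.65 (adjusted p = 0.0109, edgeR). Without WT_807 a total of 8 male-biased genes rose and 1 fell, and without MT_806 or WT_825 a total of 2 rose and 1 fell. In the female-biased list *Cux2*, a homeobox factor, rose by 1.62 (adjusted p = 0.00448, edgeR; 0.000147 to 0.0597 across alternative settings), and *Cyp2b9* fell. For *Cux2* the change was 2.45 (adjusted p = 0.00138, edgeR) in the lower and 0.54 (adjusted p = 0.719, edgeR) in the higher mouse series, and the groups overlapped, with MT_922 at 0.599 CPM below every wild-type mouse.

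Of 22 clock genes 6 fell (27.3% called against 13.5% of all genes tested) and 16 were not called, with a median of -0.066. *Bhlhe40*, a repressor in the clock, lay between 40.0 and 126 CPM in wild-type and between 18.3 and 41.7 CPM in WT/Y657* mice (-1.13, standard error 0.28, adjusted p = 0.00661, edgeR). Its relative *Bhlhe41* fell by 1.59 (adjusted p = 0.0146, edgeR; 0.00248 to 0.206 across alternative settings) and *Cry2*, a cryptochrome, by 0.61 (adjusted p = 0.00278, edgeR; 0.000506 to 0.112 likewise). Groups overlapped for all 3 genes. The list had 3 genes lower without MT_806 or MT_827 or WT_825, and the hour of day at which each liver was taken is not given in the sources used here.

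Interferon-stimulated genes were lower as a group. Of 37 tested 17 fell (45.9% called against 13.5% of all genes tested) and 20 were not called. The list had a median of -0.46, and 32 members had a negative log2 fold change. Its summed level was 2001 to 2515 CPM (median 2198) in wild-type and 1469 to 1926 CPM (median 1803) in WT/Y657* mice, without overlap. *Ifit1*, which binds viral RNA, had a median of 12.6 CPM in wild-type and lay between 3.63 and 6.55 CPM (median 5.43) in WT/Y657* mice (-1.27, standard error 0.19, adjusted p = 2.6e-05, edgeR). *Oasl1*, a relative of the oligoadenylate synthetases, lay between 9.38 and 16.1 CPM and between 3.93 and 9.47 CPM (-1.04, standard error 0.20, adjusted p = 0.000737, edgeR). *Dhx58*, a helicase that senses RNA, fell by 0.77 (adjusted p = 8.6e-05, edgeR). The groups were apart for *Ifit1* and *Dhx58* and met for *Oasl1*. Medians of the list were -0.42 in the lower and -0.54 in the higher mouse series.

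Promoters of this list were searched for GAAANNGAA, the core of the element through which interferon signalling acts, on both strands and with overlapping matches counted, in RefSeq promoters of build GRCm38.p6 within 250 bases before the gene start. A promoter was matched for 29 of the 37 genes, and 17 of these (58.6%) held the letters. The same held for 736 of 9564 genes tested with a matched promoter (7.70%), and for 7.13% of all 32851 promoters. Among members that fell 7 of 12 held it (58.3%) and among those not called 10 of 17 (58.8%), so a match did not separate them. The stretches before *Ifit1*, at chr19:34640759-34640888, and before *Ifit3*, at chr19:34583349-34583528, both on the plus strand, are shown because each holds 3 matches, in capitals. *Ifit3* was chosen for its promoter and lay between 6.44 and 11.7 CPM in wild-type and between 2.27 and 5.54 CPM in WT/Y657* mice (-1.11, standard error 0.26, adjusted p = 0.00443, edgeR). A match describes the letters and does not show that a factor binds.
Ifit1: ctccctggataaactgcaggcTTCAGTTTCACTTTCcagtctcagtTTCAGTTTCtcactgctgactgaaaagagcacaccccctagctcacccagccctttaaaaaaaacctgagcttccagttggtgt
Ifit3: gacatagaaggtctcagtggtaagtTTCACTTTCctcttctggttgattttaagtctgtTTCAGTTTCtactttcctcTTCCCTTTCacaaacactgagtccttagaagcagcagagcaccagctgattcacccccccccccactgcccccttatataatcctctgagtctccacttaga
Matches began 109, 103 and 84 bases before the start of *Ifit1*, the first pair of them overlapping, and 155, 121 and 102 bases before that of *Ifit3*.

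Of 28 acute-phase genes 1 rose (3.57% called against 13.5% of all genes tested), and 2 rose without WT_807. The gene called was *Il6ra*, the receptor of interleukin 6 (0.54, standard error 0.12, adjusted p = 0.00333, edgeR). The list includes Saa genes, whose near-identical copies make their values uncertain. Of 37 genes for chaperones of the endoplasmic reticulum and the unfolded protein response 6 rose (16.2%), with a median of 0.056. *Ssr4*, of the translocon-associated complex, lay between 48.4 and 59.1 CPM in wild-type and between 60.3 and 81.2 CPM in WT/Y657* mice (0.38, standard error 0.077, adjusted p = 0.000933, edgeR). *Sec61g*, a subunit of the translocon, rose by 0.64 (adjusted p = 0.00192, edgeR) and *Herpud1*, of the degradation pathway, by 0.57 (adjusted p = 0.00745, edgeR). Of 28 ATF4 and amino acid stress genes 1 rose and 2 fell (10.7% called): *Slc7a11*, the cystine transporter, by 0.97, *Shmt2*, a mitochondrial serine enzyme, with -0.50, and *Eif2ak2*, a kinase that senses double-stranded RNA, with -0.31 (adjusted p from 0.00119 to 0.00851, edgeR).

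Of 25 genes for the NRF2 pathway and antioxidant defence 2 rose and 5 fell. The list is not limited to genes that NRF2 induces. *Cat*, catalase, lay between 3341 and 3678 CPM (median 3537) in wild-type and between 1973 and 3055 CPM (median 2692) in WT/Y657* mice (-0.46, standard error 0.10, adjusted p = 0.00238, edgeR). *Prdx1*, a peroxiredoxin, rose by 0.28 (adjusted p = 0.00257, edgeR), and *Keap1*, the inhibitor of NRF2, fell by 0.28 (adjusted p = 0.00307, edgeR). All 3 were apart between the groups. Of 36 autophagy and lysosome genes 2 rose and 3 fell (13.9% called against 13.5% of all genes tested, median -0.054). *Gabarapl2* and *Map1lc3b*, ubiquitin-like proteins that coat the autophagosome, rose by 0.44 and 0.33 (adjusted p = 0.000154 and 0.00195, edgeR), and *Atg7*, the enzyme that activates them, fell by 0.42 (adjusted p = 0.00132, edgeR). Of 23 immediate early and growth arrest genes 2 rose (8.70%). *Cdkn1a*, the inhibitor p21 of the cell cycle, lay between 0.952 and 7.37 CPM in wild-type and between 1.93 and 59.2 CPM in WT/Y657* mice (2.41, standard error 0.48, adjusted p = 0.00120, edgeR; 5.5e-05 to 0.0848 across alternative settings). *Klf6*, a zinc finger factor, rose by 0.69 (adjusted p = 0.0156, edgeR; 0.0890 without MT_827). Of 21 cell cycle genes (9.52% called) 1 rose, *Ccnb2* (2.55, adjusted p = 0.0201, edgeR; 0.00761 to 0.129 across alternative settings, 0.0738 without MT_827 and 0.0675 without MT_923), and 1 fell, *Mcm4*, of the replicative helicase (-0.53, adjusted p = 0.0136, edgeR).

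Of 7 nuclear long non-coding RNAs 3 rose (42.9%). *Snhg3*, a host of small nucleolar RNAs, lay between 2.34 and 4.15 CPM in wild-type and between 4.44 and 11.6 CPM in WT/Y657* mice (1.33, standard error 0.21, adjusted p = 5.4e-05, edgeR). *Malat1*, retained in nuclear speckles, lay between 2522 and 3005 CPM and between 2699 and 4904 CPM (0.56, standard error 0.11, adjusted p = 0.000939, edgeR). *Gas5* rose by 0.29 (adjusted p = 0.0163, edgeR; 0.0521, 0.0543 and 0.0522 without MT_806 and MT_826 and WT_807, respectively). Groups were apart for *Snhg3* and overlapped for *Malat1* and *Gas5*. Among 234 intergenic long non-coding RNAs tested in all, 21 rose and 2 fell (9.83% called against 13.5% of all genes tested), with a median of 0.31.

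**Figure D4:**
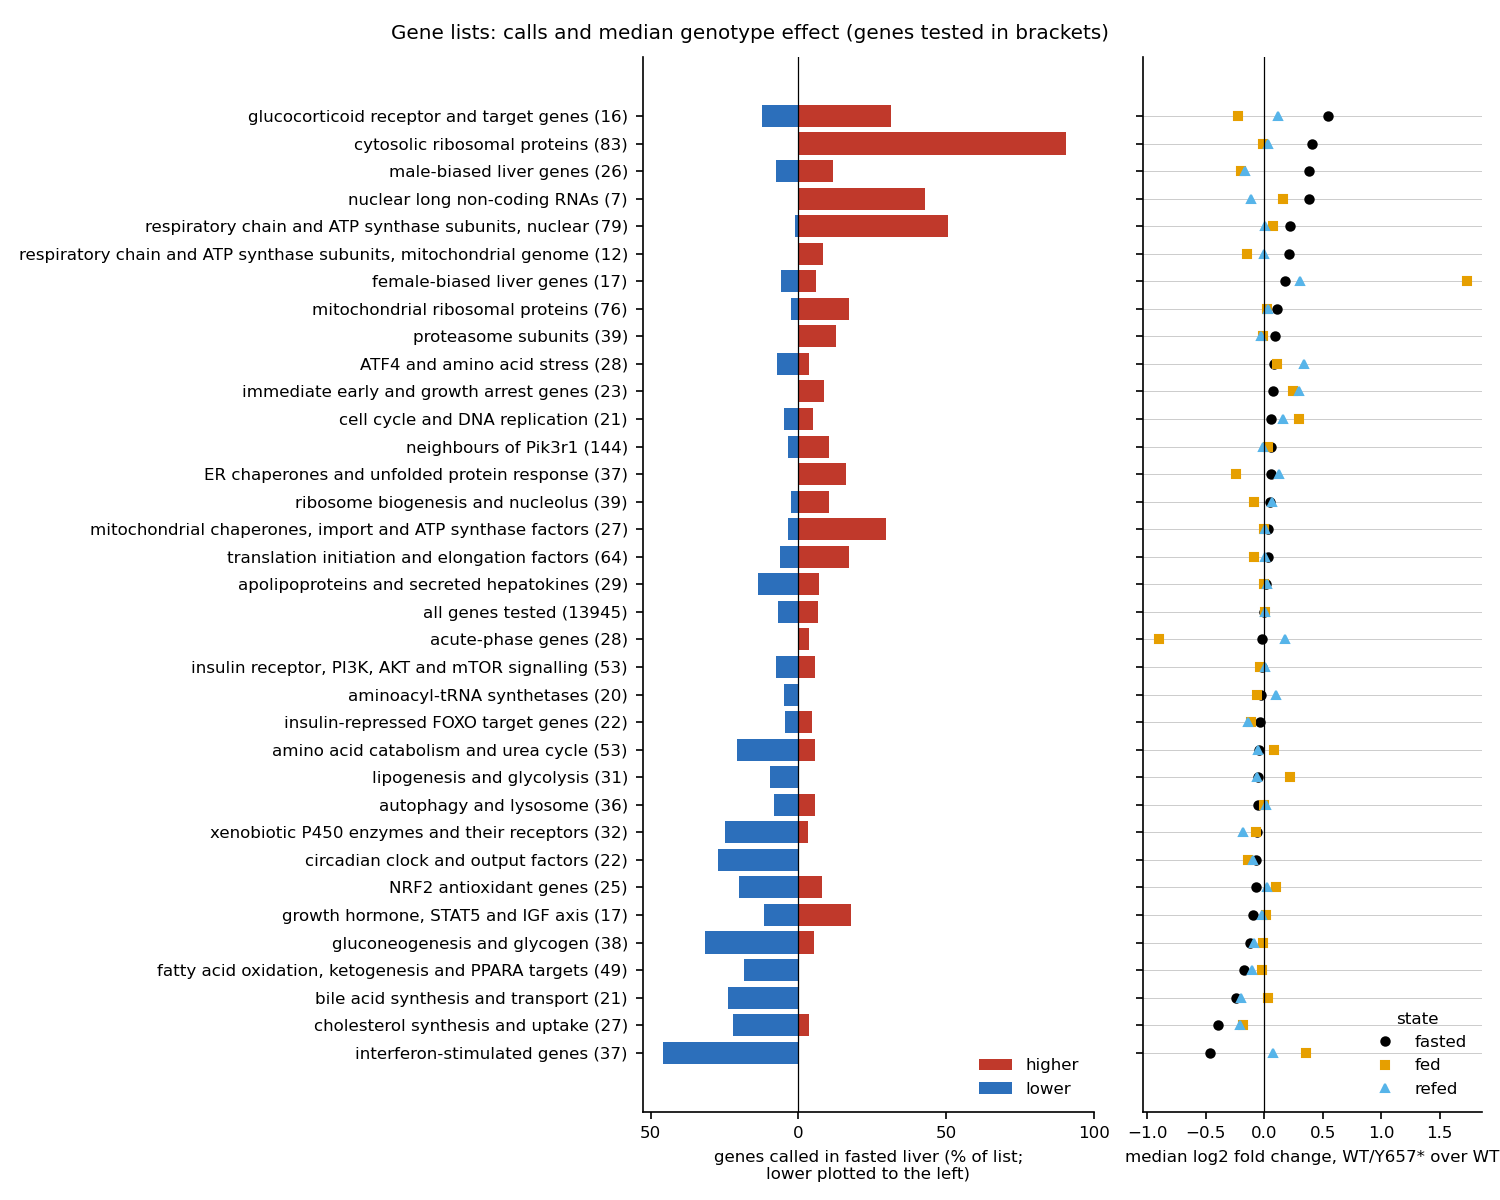
Left, share of each gene list called in fasted liver (x axis, % of members tested, number tested in brackets), with genes higher in WT/Y657* mice to the right and lower ones to the left. Right, median log2 fold change between genotypes of each list in fasted, fed and refed mice; in fasted mice it is 0.41 for cytosolic ribosomal proteins, -0.46 for interferon-stimulated genes and 0.003 for all genes tested.

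None of 9 hepatocyte markers was called by edgeR, with 2 at an unadjusted p under 0.05 and 1 called by DESeq2 and by limma-voom. By edgeR 1 was called without MT_827 or MT_921, and 0 to 2 were called across alternative settings, with 2 under correction for gene length and GC content. Their sum, led by *Alb*, was 66320 to 97675 CPM in wild-type and 74687 to 95437 CPM in WT/Y657* mice. Kupffer cell and macrophage markers, led by *Cd5l*, summed to 334 to 613 CPM and 342 to 576 CPM, and of 10 tested 0 were called by edgeR, DESeq2 or limma-voom and 0 had an unadjusted p under 0.05. The 17 endothelial markers, with *Ptprb* the most abundant, summed to at most 945 CPM in wild-type and 791 to 962 CPM in WT/Y657* mice. Of these 1 rose (5.88% called, below the 13.5% of all genes tested). This was *Lyve1*, a hyaluronan receptor, between 6.03 and 11.5 CPM in wild-type and between 11.4 and 41.7 CPM in WT/Y657* mice (1.28, standard error 0.40, adjusted p = 0.0324, edgeR; 0.0138 to 0.0629 across alternative settings). Its adjusted p lay between 0.0532 and 0.0932 without any 1 of MT_806 and MT_827 and WT_807, WT_824, WT_825 and WT_918. Of 12 stellate cell markers, at 481 to 575 CPM and 509 to 733 CPM, 1 rose (8.33% called, likewise below 13.5%). This was *Dcn*, the most abundant, a matrix proteoglycan (0.40, adjusted p = 0.0164, edgeR). Its adjusted p was 0.00911 to 0.0773 across alternative settings, 0.0631 without MT_827 and 0.0579 without WT_807. Without MT_921 a total of 1 endothelial marker rose and 1 fell, and without MT_922 the same held for stellate cell markers.

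Other cell types left few counts. Cholangiocyte markers, led by *Spp1*, summed to 25.2 to 48.7 CPM in wild-type and 20.6 to 50.4 CPM in WT/Y657* mice, and B cell markers, led by *Cd74*, to 67.9 to 98.8 CPM and 42.8 to 79.9 CPM. Erythroid markers, led by *Alas2*, summed to 117 to 165 CPM and 119 to 132 CPM. For these 3 lists 0 of 5, 0 of 5 and 0 of 3 genes were called by edgeR, DESeq2 or limma-voom, and 0 had an unadjusted p under 0.05. Markers of T and NK cells, led by *Klrb1c*, summed to 2.08 to 4.19 CPM and 2.24 to 8.46 CPM (median log2 fold change 1.18), and 0 of 4 tested were called by edgeR or limma-voom, 2 had an unadjusted p under 0.05 and 1, *Gzma*, was called by DESeq2. Their median was 1.56 in the lower and 0.33 in the higher mouse series, and MT_806 and MT_827 had the highest sums (8.46 and 7.72 CPM). Neutrophil markers, led by *S100a9*, summed to 0.286 to 2.46 CPM and 2.43 to 7.86 CPM (median log2 fold change 1.24), with 0 of 2 tested called by the 3 tools or under an unadjusted p of 0.05, and *Ly6g*, which defines the cells in mice, was at 0 in all 12 livers. The neutrophil median was 2.36 in the lower and 0.29 in the higher mouse series, and MT_806 had the highest sum (7.86 CPM). Of 4 adipocyte markers 1 was tested, *Cfd*, at 2.53 to 5.94 CPM and 0 to 2.91 CPM (-2.16, standard error 0.86, adjusted p = 0.0944, edgeR; 0.0250 by DESeq2 and up to 0.168 across alternative settings), and of 6 markers of exocrine pancreas 1, *Cela1*, at 5.54 to 10.8 CPM and 4.23 to 7.44 CPM (-0.47, adjusted p = 0.141, edgeR; 0.0314 with the 24 fasted and refed livers and 0.0401 with the 12 fasted livers alone). The part of cell composition in the changes described here was not tested.

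DNA near a targeted gene can stay from the embryonic stem cells through backcrossing, so genes around *Pik3r1* were examined. Of 144 genes tested that start within 20 Mb of it on chromosome 13, 15 rose and 5 fell, 13.9% against 12.5% of all genes tested on that chromosome, with a median of 0.057 that was -0.002 after correction for gene length and GC content. Without MT_806, 9 rose and 4 fell. The called gene nearest to *Pik3r1* was *Taf9*, at -1.03 Mb, listed under separate gene identifiers. Its level under them rose by 0.61 (adjusted p = 0.000231, edgeR) and by 0.46 (adjusted p = 0.0146, edgeR). *Esm1* lies 11.53 Mb from *Pik3r1*, *Ndufs4*, of respiratory complex I, 12.61 Mb (0.44, adjusted p = 0.000365, edgeR), and *Mccc2*, an enzyme of leucine breakdown, -1.73 Mb (-0.41, adjusted p = 0.00137, edgeR). *Nnt*, the transhydrogenase of the inner mitochondrial membrane, lies 17.65 Mb away and carries a deletion in C57BL/6J but not in other C57BL/6 stocks. It was at 68.9, 69.3, 76.2, 78.0, 81.4 and 140 CPM in wild-type and at 59.5, 113, 127, 133, 145 and 147 CPM in WT/Y657* mice (0.50, standard error 0.24, adjusted p = 0.169, edgeR). In fed mice it was at 44.8, 44.8, 48.4, 48.5, 49.0 and 85.7 CPM in wild-type and at 45.3, 81.8, 89.1, 101, 108 and 116 CPM in WT/Y657* mice, and in refed mice at 61.1, 66.1, 75.2, 76.1, 114 and 133 CPM and at 70.5, 115, 115, 118, 124 and 128 CPM, respectively. Among fasted mice WT_825 and MT_806 lay with the other genotype. The gene's part in the changes described here was not tested.

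Whether the genotype effect differed from that in fed and refed mice was tested within the same model, with the caution that fed mice come from neither mouse series. It differed from the fed effect for 655 genes (4.70% of genes tested), 368 with a more positive and 287 with a more negative effect in fasted mice, and from the refed effect for 306 genes (2.19%), 220 and 86. With scaling by library size alone these splits were 226 and 443, and 122 and 84. Without MT_806 the counts were 435 and 153. The count against refed mice also moved to 157 without MT_923 and to 172, 203, 193 and 198 without WT_807, WT_824, WT_825 and WT_919. Of the 1883 genes called in fasted mice, 487 also differed from the fed and 280 from the refed effect.

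Ribosomal protein genes had the most members among these, 61 of 83 against fed and 45 against refed mice, all more positive in fasted mice, and their median genotype effect was -0.012 in fed and 0.032 in refed mice. *Rpl41* changed by -0.038 and -0.058 in those states, differences of 0.76 (adjusted p = 0.000495, edgeR) and 0.78 (adjusted p = 0.000688, edgeR). Of respiratory chain genes 13 and 15 differed, among them *Cox7b*, by 0.47 (adjusted p = 0.0195, edgeR) and 0.61 (adjusted p = 0.00564, edgeR). Interferon-stimulated genes differed in 16 of 37 cases from fed and 5 from refed mice, with medians of 0.36 and 0.072 in those states. Immune cell markers were also higher in the median in fed WT/Y657* mice, by 1.35 for B cells, 1.99 for T and NK cells and 0.70 for Kupffer cells and macrophages, and 2 of 5 B cell markers had a more negative effect in fasted than in fed mice. The part of cell content in the fed values of interferon-stimulated genes was not tested. *Ifit1* was higher in fed WT/Y657* mice (0.69, adjusted p = 0.0383, edgeR) and lower in fasted ones, a difference of -1.96 (adjusted p = 6.6e-05, edgeR).

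Endoplasmic reticulum genes differed from the fed effect in 13 of 37 cases and acute-phase genes in 7 of 28, all with a more positive effect in fasted mice, the acute-phase median being -0.90 in fed mice. *Il6ra* changed by -0.45 in fed mice (adjusted p = 0.0416, edgeR), a difference of 0.99 (adjusted p = 0.00122, edgeR). Of gluconeogenesis and glycogen genes 9 of 38 were more negative than in fed mice, *Cebpa* by -0.50 (adjusted p = 0.0253, edgeR). Of the 16 genes for the glucocorticoid receptor and its targets 5 were more positive, among them *Fkbp5* by 1.03 (adjusted p = 0.0258, edgeR) and *Zbtb16* by 1.79 (adjusted p = 0.00873, edgeR), and 1 was more negative, the receptor gene *Nr3c1* (-0.31, adjusted p = 0.0401, edgeR). *Pfkfb2* changed by -0.33 (adjusted p = 0.0569, edgeR) in fed mice, a difference of 1.19 (adjusted p = 7.1e-06, edgeR). *Esm1* was of another kind: it changed by 2.67 (adjusted p = 0.0276, edgeR) in fed and 3.44 (adjusted p = 0.127, edgeR) in refed mice, and the differences of 0.56 and -0.21 were within the error (adjusted p = 0.802 and 0.955, edgeR).

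**Figure D5:**
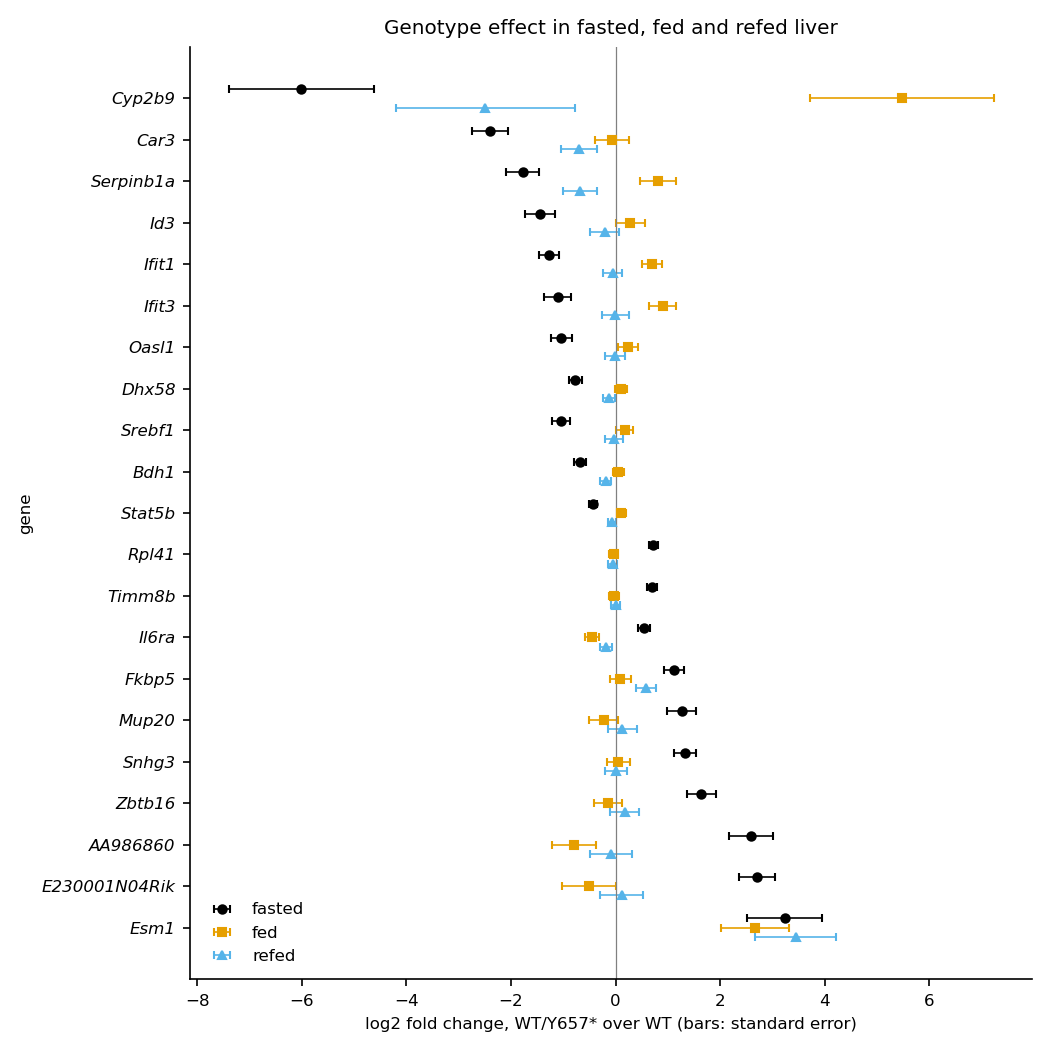
Log2 fold change between genotypes (x axis, bars are standard errors) of 21 genes in fasted, fed and refed mice, with 6 mice of each genotype in each state. *Rpl41* stands at 0.72 in fasted, -0.038 in fed and -0.058 in refed mice, *Ifit1* at -1.27, 0.69 and -0.058, and *Esm1* at 3.23, 2.67 and 3.44.

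Within the lower mouse series, 3 against 3 mice, 1018 genes were called (7.30% of genes tested), 539 higher and 479 lower, and within the higher series 73 (0.523%), 37 and 36. The difference between the series was called for 0 genes by edgeR, with 675 at an unadjusted p under 0.05, and for 1 gene with the 12 fasted livers alone. The median of ribosomal protein genes was 0.53 in the lower and 0.29 in the higher series, that of respiratory chain genes 0.25 and 0.18, and that of genes under 500 bases 0.49 and 0.36. *Gm16573* (1.51 and 1.33, adjusted p = 0.000153 and 0.00469, edgeR) and *Ifit1* (adjusted p = 0.00403 and 0.0269, edgeR) were called in each series. *Fkbp5* changed by 1.63 (adjusted p = 0.000164, edgeR) in the lower and 0.62 (adjusted p = 0.232, edgeR) in the higher series, and *Car3* by -2.93 (adjusted p = 0.000598, edgeR) and -1.87 (adjusted p = 0.0582, edgeR).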

How the data were processed

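RNA of 36 mouse livers was sequenced by the authors (stranded total RNA kit, single reads of 50 bases). Expected counts, estimated reads per gene and mouse that are not normalized, were deposited by the authors, who name Cuffdiff, SAMtools, featureCounts and edgeR without versions; 3.6375% of nonzero values were not whole and were rounded. The notes name build mm9, but positions of genes in the file overlap those in GRCm38, so GENCODE M21 gave exon lengths and positions for 36341 of 38283 genes. A table of fitted counts was not used because it holds model means. The 12 fasted livers, with 8839488 to 14630431 counts each, were grouped by genotype and blocked by mouse series.

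Genes were filtered with filterByExpr, scaled by TMM and tested with edgeR 4.0.16 (robust quasi-likelihood fit) in R 4.3.3, and 13945 genes were tested in 1 model over all 36 livers. Alternatives used DESeq2 1.42.0, limma-voom (limma 3.58.1), edgeR's likelihood ratio test, other scaling, filters, terms and livers, correction for gene length and GC content, Bonferroni adjustment, and each fasted mouse left out. Library measures were compared by exact permutation in Python 3.11.15 with scipy 1.17.1, numpy 2.4.6 and pandas 2.3.3.

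Genes named are the 10 largest changes in each direction among called genes with a mean of at least 1 CPM and no overlap between groups, the 3 members of smallest p in each of 34 gene lists, genes the study names for liver, and called genes near *Pik3r1* with *Nnt*. Some genes under this rule are not reported here. Exceptions are stated where they occur, and markers of 11 cell types are named by abundance or call. Members and lists were chosen with earlier results of these data known.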

Additional observations from a re-analysis of the deposited data

Results flagged for a closer look

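Within a group of 6 fasted mice, 1 mouse stood far from the other 5 in 10 of 228 groups of gene levels examined, and chance gives such a mouse in about 1 in 20 groups. Among wild-type mice these were WT_825 for *Cyp2b9* (75.0 CPM), *Sema5b* (11.1 CPM) and *Nnt* (140 CPM), WT_824 for *Timm8b* (25.1 CPM), WT_920 for *Snhg3* (4.15 CPM), and WT_807, below the others, for *Eif4b* (270 CPM). Among WT/Y657* mice they were MT_827 for *Ly6d* (46.0 CPM), *Fam83a* (4.07 CPM) and *Klf6* (39.4 CPM), and MT_921 for *Cyp2b9* (1.34 CPM).

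Among 114 named genes, which leave out *Taf9*, 54 had a genotype effect in fasted mice that differed from the fed or refed effect. Differences are called by edgeR's test of the difference and given on the log2 scale. Over all genes tested 4.70% differed from the fed and 2.19% from the refed effect. Many genes were named for a large change or small p in fasted mice, so their share cannot be set against those of all genes. Genes with a more positive effect than in fed and in refed mice, in that order, were *E230001N04Rik* 3.21 and 2.58, *AA986860* 3.37 and 2.68, *Rpl41* 0.76 and 0.78, *Rpl9* 0.67 and 0.61, *Rpl12* 0.72 and 0.67, *Cox7a2* 0.51 and 0.57, *Cox7b* 0.47 and 0.61 and *Atp5e* 0.40 and 0.44. Further genes of this kind were *Timm8b* 0.73 and 0.69, *Eef1b2* 0.50 and 0.46, *Zbtb16* 1.79 and 1.47, *Il6ra* 0.99 and 0.72, *Sec61g* 0.80 and 0.71, *Snhg3* 1.28 and 1.32, *Gabarapl2* 0.39 and 0.41 and *Ndufs4* 0.48 and 0.53. To these come *Gm16573* 1.51 and 1.43, *Pfkfb2* 1.19 and 0.82, *Psma7* 0.30 and 0.39 and *Mrpl50* 0.38 and 0.45. Genes with a more negative effect than in fed and in refed mice were *Srebf1* -1.22 and -1.02, *Ifit1* -1.96 and -1.21, *Dhx58* -0.88 and -0.64 and *Oasl1* -1.27 and -1.03. Against fed mice alone the effect was more positive for *E030018B13Rik* 3.10, *Hspe1* 0.75, *Fkbp5* 1.03, *Mup20* 1.49, *C6* 1.03, *Ssr4* 0.43 and *Herpud1* 0.76. It was more negative than in fed mice alone for *Cyp2b9* -11.48, *Serpinb1a* -2.59, *Car3* -2.33, *Ifit3* -2.01, *Id3* -1.72, *Tpm2* -1.19, *Mid1ip1* -1.04 and *Lipc* -0.77. For *Cyp2b9* fed WT/Y657* mice had a median of 0 CPM and fed wild-type mice at most 0.171 CPM, so the size of its difference rests on values near 0 and on a minority of fed WT/Y657* mice. Likewise more negative were *Bdh1* -0.73, *Mcm4* -0.70, *Aldh4a1* -0.66, *Phlpp1* -0.58, *Stat5b* -0.54, *Cebpa* -0.50, *Eif4b* -0.42 and *Atg7* -0.42. Smaller differences of that sign were those of *Mccc2* -0.42, *Pgm2* -0.39, *Nr3c1* -0.31 and *Keap1* -0.30. Against refed mice alone the effect was more positive for *Slc7a11* 1.30, *Malat1* 0.85 and *Nop10* 0.41.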

How the results depend on the processing

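Of 106 genes named that were called, 89 stayed called under the 11 or 12 other settings that tested them and with each of 12 mice left out in turn. *Taf9* is not counted among the 106. Of the other 17, 10 lost the call without a mouse and 13 under another setting, and 3 genes not called gained a call under some setting or without a mouse. Under Bonferroni adjustment 33 of the 106 passed. Without MT_826 or MT_923 the change of *Pik3r1* turned to -0.001 and -0.002, and without MT_806 it was 0.12.

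The count of called genes in fasted mice was 1482 to 2124 under the other settings, 1223 (without MT_806) to 1975 (without MT_826) with a mouse left out, and 154 under Bonferroni adjustment. With the 12 fasted livers alone 977 rose and 752 fell, and without the mouse series term as well 638 of 1534 called genes fell. The difference from fed mice held for 427 genes without a filter, 34 under Bonferroni adjustment and 435 to 736 with a mouse left out (MT_806 and MT_921). The difference from refed mice held for 482 by DESeq2, 181 without a filter, 177 with correction for gene length and GC content, 15 under Bonferroni adjustment and 153 to 419 with a mouse left out (MT_806 and MT_921), among them 157 without MT_923 and 172, 203, 193 and 198 without WT_807, WT_824, WT_825 and WT_919. The difference between mouse series was called for 1 gene with the 12 fasted livers alone. Bonferroni adjustment is stricter by its construction. For the other shifts the cause was not tested.

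Medians moved for subunits of the mitochondrial genome (-0.059 with length and GC correction), translation factors (0.069 with library size only, 0.062 with the 12 fasted livers alone) and neighbours of *Pik3r1* (0.095 with library size only, -0.002 with length and GC correction), and the cause was not tested. With library size only the median over all genes was 0.043. Depth limits what can be said of genes with few counts.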
